A study of Mus musculus with 20 samples.

Results

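The 10 homeostatic astrocyte genes described here are Slc1a2, Slc1a3, Glul, Aqp4, Gja1, Gjb6, Aldh1l1, Aldoc, S100b and Sox9. They are genes that mature, resting astrocytes are known for. The rule was a list of names that used no measured value, though the list was drawn up with earlier results of these data known. All 10 were found among the 25190 genes of the count table, and all 10 passed the only filter on low values, a total of at least 10 reads over the series. The 20 libraries came from wild-type C57BL/6JOlaHsd male mice, labelled as 4 months old, with 5 mice in each of 4 groups. The Vehicle group was given artificial cerebrospinal fluid alone. The infusate of the Control group held small RNAs (sRNAs) combined from hippocampi of control individuals. For Pool 1 and Pool 2 the sRNAs came from hippocampi of patients with schizophrenia, with a separate cohort for each. Every mouse was infused stereotaxically in the hippocampus, went through behavioural tests and was sampled 24 h after the last one, so that surgery, infusion and testing were shared by all 4 groups. The tissue was bulk hippocampal CA1 tissue, and each sRNA group of 5 mice was given 1 pool, so the p-values below measure the spread between mice and not between pools.

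Astrocytes clear the glutamate released at synapses and convert it to glutamine, which neurons take up again to make new transmitter. They wrap blood vessels with endfeet rich in water channels, buffer potassium, and are coupled to each other through gap junctions built from connexins. The genes that carry out these tasks are expressed by nearly all astrocytes of the hippocampus, and several of them are the usual markers by which the cell type is recognised. When tissue is injured or inflamed, astrocytes turn on another set of genes, led by the intermediate filaments Gfap and Vim, and the homeostatic genes can then be kept, lowered or raised. The comparisons below ask whether human sRNAs, and those of patients in particular, were accompanied by another level of the homeostatic genes. Because the tissue was bulk, fewer astrocytes and less RNA per astrocyte cannot be told apart.

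Each library held between 20588280 and 25543939 counted reads, and the 10 genes together took between 0.579% and 0.827% of them. Levels are given as CPM, the count a gene would have in a library of 1000000 reads, after trimmed-mean scaling of the libraries. The Pool 2 library of replicate 1 stood apart. It had the highest level of all 20 libraries for 8 of the 10 genes, the exceptions being Slc1a2 and Aldh1l1, and its mean deviation from the average library over the 10 genes was 0.43 on the log2 scale, against -0.19 to 0.14 in the other 19 libraries. The same library had the highest summed level of 12 microglial genes, 1665 CPM, and of 18 reactive astrocyte genes, 1965 CPM, and the highest mitochondrial share of its counts, 5.79%. The Pool 2 library of replicate 4 had the highest summed level of 8 thalamic marker genes, 515 CPM, where the highest Vehicle, Control and Pool 1 libraries had 182, 230 and 128 CPM. The members' results are given with and without replicate 1 where it changed them.

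All 10 genes were detected in every library. Compared per kilobase of exon, the level in Vehicle mice was highest for Glul, at 453 CPM per kb on average with a range of 419 to 493. Slc1a2 followed at 225 and Aldoc at 211, and these neighbours overlapped in range. Slc1a3 at 75.7 and S100b at 69.4 overlapped likewise, as did Aqp4 at 24.4 and Gja1 at 21.2. Gjb6 stood alone at 14.5 CPM per kb, while Aldh1l1 at 9.08 and Sox9 at 8.39 overlapped at the low end. The spread between Vehicle mice was small, with a coefficient of variation from 6.42% for Glul to 16.3% for Gjb6.

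**Figure D1:**
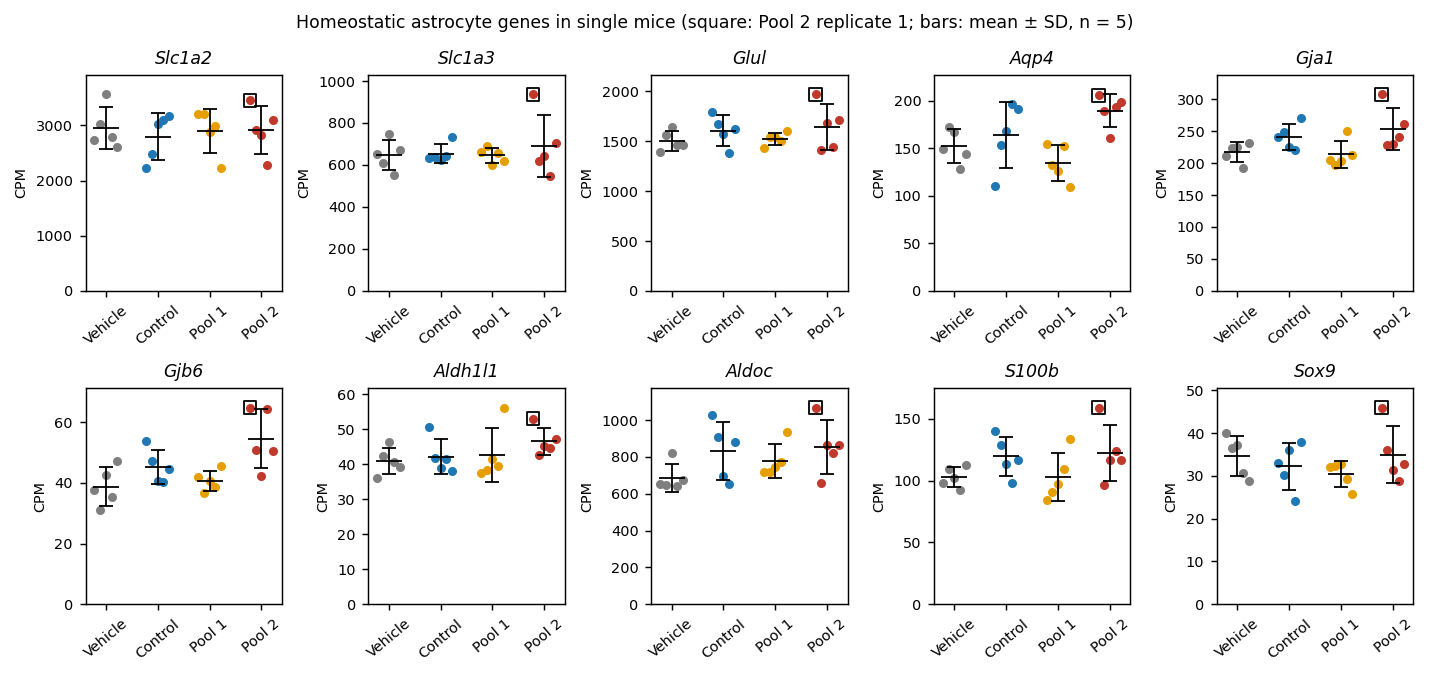
Level of each gene in CPM (vertical axis, starting at 0) in every mouse of the 4 groups (horizontal axis), with the group mean and SD as bars and Pool 2 replicate 1 in a square. The Aqp4 points of Pool 2, from 160 to 206 CPM, lie above all Pool 1 points, from 109 to 154 CPM, and Pool 2 replicate 1 is the top point of its panel in 8 of the 10 genes.

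A gene was counted as past the threshold when its log2 fold change was at least 0.3 in size and its unadjusted p under 0.05 in edgeR's quasi-likelihood test, the study's limits applied to that test. No member had an adjusted p under 0.05 in any of the 6 comparisons, and neither did any other gene in edgeR, so every call below is one at an unadjusted p. Unadjusted p-values under 0.05 were reached by 1314 to 2146 of all genes, depending on the comparison. DESeq2 also gave no member an adjusted p under 0.05, while it gave between 0 and 115 of all genes one.

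Aqp4 and Gjb6 were higher in Pool 2 than in Pool 1 mice, and they were the only members past the threshold in that comparison. Aqp4 encodes aquaporin-4, the water channel of astrocyte endfeet. It lies on chromosome 18, positions 15389496 to 15410982 on the minus strand of GRCm38. Its level in Pool 1 mice was 154, 132, 126, 153 and 109 CPM in replicates 1 to 5, and in Pool 2 mice 206, 189, 160, 194 and 199 CPM. Every Pool 2 mouse was above every Pool 1 mouse. Across all genes, 1.41% had ranges that did not overlap between these groups, and 1.23% of the 6180 genes with a mean level at or above that of Sox9, the lowest member. The mean was 189 CPM ± 17.4 in Pool 2 and 135 CPM ± 18.9 in Pool 1 (SD, n = 5 each), a log2 fold change of 0.49 (SE 0.13, 95% interval 0.23 to 0.75). The unadjusted p was 0.000812 and the adjusted p 0.221 in edgeR, and the exact two-sided permutation test over mice gave its smallest possible value for 5 against 5, p = 0.00794. Without Pool 2 replicate 1 the log2 fold change was 0.46 (unadjusted p = 0.00257, edgeR), and without Pool 2 replicates 1 and 4 it was 0.40 (unadjusted p = 0.0146, edgeR), both past the threshold.

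The remaining groups placed Aqp4 between these levels. Vehicle mice had 149, 172, 167, 129 and 144 CPM in replicates 1 to 5, and Control mice 110, 153, 168, 197 and 192 CPM. Control mice had the widest spread, 164 CPM ± 34.9 (SD, n = 5), and covered the ranges of both Vehicle and Pool 1 almost whole. Against Control, Aqp4 missed the threshold in both pools, with a log2 fold change of -0.28 in Pool 1 (SE 0.13, unadjusted p = 0.0382, adjusted p = 0.917 in edgeR) and 0.21 in Pool 2 (SE 0.13, unadjusted p = 0.114, adjusted p = 0.745). The Pool 1 value stood just short of the limit and was past it without Control replicate 1 or 2, or Pool 1 replicate 1 or 4, with log2 fold changes down to -0.39. Against Vehicle, Pool 2 was past the threshold with 0.32 (SE 0.13, unadjusted p = 0.021, adjusted p = 0.886), and 4 of 5 Pool 2 mice were above every Vehicle mouse. This call was lost without Pool 2 replicate 1, where the log2 fold change was 0.28. It was lost as well without Pool 2 replicate 5 or without Vehicle replicate 1, 4 or 5.

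The connexins came next. Gja1 and Gjb6 encode connexin 43 and connexin 30, the subunits of astrocyte gap junctions. Gja1 lies on chromosome 10, positions 56377330 to 56402513 on the plus strand, and Gjb6 on chromosome 14, positions 57123303 to 57133611 on the minus strand. Gjb6 was at 42.0, 36.8, 40.5, 38.6 and 45.6 CPM in Pool 1 replicates 1 to 5 and at 64.9, 50.7, 42.2, 64.5 and 50.6 CPM in those of Pool 2. In Pool 2, replicates 1 and 4 were the highest of all 20 libraries, 4 of 5 mice were above every Pool 1 mouse, and replicate 3 overlapped with Pool 1. The means were 54.6 CPM ± 9.84 and 40.7 CPM ± 3.37 (SD, n = 5 each), a log2 fold change of 0.42 (SE 0.12, 95% interval 0.18 to 0.67). Its unadjusted p was 0.00171 and its adjusted p 0.276 in edgeR, and the exact permutation test gave p = 0.0159.

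Gjb6 was also higher on average in Pool 2 than in Vehicle mice, though the ranges overlapped. The Vehicle mice had 37.8, 31.0, 42.6, 35.4 and 47.2 CPM in replicates 1 to 5. Again 4 of 5 Pool 2 mice were above every mouse of the other group. The log2 fold change was 0.49 (SE 0.12, unadjusted p = 0.000403, adjusted p = 0.723 in edgeR; exact permutation p = 0.0238). Control mice lay between, at 53.7, 47.2, 40.5, 40.3 and 44.4 CPM, overlapping with all other groups. Against Control the Pool 2 difference was 0.27 (SE 0.12, unadjusted p = 0.0322, adjusted p = 0.595 in edgeR), short of the limit on size. The Gjb6 differences from Pool 1 and Vehicle stayed past the threshold when any one library was left out, and were 0.35 and 0.42 without Pool 2 replicate 1. Without replicates 1 and 4 together they were 0.20 (unadjusted p = 0.122, edgeR) and 0.299 (unadjusted p = 0.0232, edgeR), and neither was past the threshold.

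Gja1 had the same order of group means as Aqp4, highest in Pool 2 and lowest in Pool 1. It measured 205, 198, 203, 251 and 213 CPM in Pool 1 and 308, 228, 229, 241 and 262 CPM in Pool 2, so that the groups overlapped through Pool 1 replicate 4. Its log2 fold change of 0.25 (SE 0.09, unadjusted p = 0.0136, adjusted p = 0.425 in edgeR; exact permutation p = 0.0397) did not reach 0.3, and was 0.17 without Pool 2 replicate 1. Against Vehicle it was 0.22 in Pool 2 and -0.02 in Pool 1.

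The transporters and the enzyme of the glutamate cycle differed little. Slc1a2 encodes GLT-1, the main glutamate transporter of the forebrain, and lies on chromosome 2, positions 102658659 to 102790784 on the plus strand. Its lowest, median and highest levels were 2608, 2799 and 3568 CPM in Vehicle, 2227, 3021 and 3168 in Control, 2226, 2987 and 3212 in Pool 1, and 2284, 2919 and 3457 in Pool 2. The 4 ranges lay almost on top of each other. The log2 fold changes of Slc1a2 in the 6 comparisons ran from -0.08 to 0.06, and the 95% interval for Pool 2 against Pool 1 was -0.25 to 0.26, which leaves room for differences of that size. Slc1a3, on chromosome 15, positions 8634124 to 8710764 on the minus strand, encodes GLAST, the transporter shared by astrocytes and radial glia. It had means of 646 CPM in Vehicle, 654 in Control, 646 in Pool 1 and 690 in Pool 2, the last with an SD of 149 against 36.8 to 72.4 in the other groups. The Pool 2 mean rested on replicate 1, at 937 CPM, where the other 4 mice had 545 to 703 CPM. Its differences of 0.08 from Control and 0.09 from Pool 1 became -0.06 and -0.04 without that library. Glul, on chromosome 1, positions 153899944 to 153909723 on the plus strand, encodes glutamine synthetase. It had the lowest coefficient of variation of the 10 over all 20 libraries, 9.48%, with group means from 1504 CPM ± 96.5 in Vehicle to 1644 CPM ± 228 in Pool 2 (SD, n = 5) and log2 fold changes from -0.08 to 0.13, none with an unadjusted p under 0.05.

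Aldoc and Aldh1l1 encode metabolic enzymes used to mark astrocytes, aldolase C of glycolysis and a 10-formyltetrahydrofolate dehydrogenase of folate metabolism. Aldoc lies on chromosome 11, positions 78322968 to 78327781 on the plus strand. It was at 654, 648, 822, 640 and 677 CPM in Vehicle replicates 1 to 5 and at 1068, 656, 862, 824 and 864 CPM in Pool 2. The upper 4 Pool 2 mice were above every Vehicle mouse, and replicate 2 lay within the Vehicle range. The log2 fold change was 0.31 (SE 0.13, 95% interval 0.05 to 0.57), past the threshold with an unadjusted p of 0.0212 and an adjusted p of 0.886 in edgeR, and an exact permutation p of 0.0317. It fell to 0.22 (unadjusted p = 0.0918, edgeR) without Pool 2 replicate 1, and the call was also lost without Vehicle replicate 1, 2 or 4. The Control mean of 832 CPM was nearly as high as the Pool 2 mean of 855, with 0.28 against Vehicle (SE 0.13, unadjusted p = 0.0405, adjusted p = 0.739). Pool 1 reached 778 CPM. The mean was above that of Vehicle in all 3 groups given human sRNA, though only Pool 2 was past the threshold, and the log2 fold changes among the 3 ran from -0.10 to 0.14. Aldh1l1, on chromosome 6, positions 90486427 to 90600203 on the plus strand, had group means of 41.0, 42.3, 42.7 and 46.5 CPM in Vehicle, Control, Pool 1 and Pool 2. No Aldh1l1 difference had an unadjusted p under 0.05 in edgeR, and its largest, 0.18 for Pool 2 against Vehicle, had an exact permutation p of 0.0476.

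S100b, on chromosome 10, positions 76253853 to 76261159 on the plus strand, encodes a calcium-binding protein of mature astrocytes. It measured 98.2, 109, 102, 92.8 and 112 CPM in Vehicle, and 141, 129, 114, 98.4 and 117 in Control. In Pool 1 it measured 83.9, 90.4, 97.4, 109 and 134 CPM, and in Pool 2 159, 96.4, 116, 124 and 116 CPM. All groups overlapped. The differences were 0.25 for Pool 2 against Pool 1 and against Vehicle, 0.22 for Control against Vehicle and -0.22 for Pool 1 against Control, with SE 0.13 and unadjusted p-values from 0.0589 to 0.097. The Pool 2 differences were 0.14 each without replicate 1. Sox9, a transcription factor that specifies astrocytes and is kept in them, lies on chromosome 11, positions 112782224 to 112787760 on the plus strand. Sox9 had group means from 30.4 CPM in Pool 1 to 35.0 in Pool 2, and its differences, from -0.19 to 0.20, were all within the spread between mice (unadjusted p from 0.128 to 0.924 in edgeR).

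Because Gja1, Gjb6 and S100b varied together between mice (Pearson r of log2 CPM from 0.65 to 0.76 in their 3 pairs), the 250 bases before their transcription starts are printed here, from RefSeq on GRCm38.p6 and on the strand of the gene. They were not the closest members, since Glul and Aldoc had r = 0.85. Without Pool 2 replicate 1 the 3 values ran from 0.51 to 0.64. Only Gja1 with S100b then kept a permutation p under 0.05 after adjustment over the 45 pairs of members. Gja1, Gjb6 and S100b also went with an index, described below, of the balance of long and short transcripts in the libraries (r = -0.47, -0.55 and -0.85). The part of that balance in their shared variation was not tested. Capitals mark TTGGC, the half-site of nuclear factor I, and CCAAT, the core of the CCAAT box, on either strand. Both letter strings can overlap, and they do in S100b, where GCCAAT and ATTGGC hold one of each.

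Gjb6, chr14:57133612-57133861, minus strand: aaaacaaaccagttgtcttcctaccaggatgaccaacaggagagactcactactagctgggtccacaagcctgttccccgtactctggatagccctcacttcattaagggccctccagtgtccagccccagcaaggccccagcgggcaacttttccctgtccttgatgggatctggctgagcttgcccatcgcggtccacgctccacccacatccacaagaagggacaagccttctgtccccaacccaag

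Gja1, chr10:56377050-56377299, plus strand: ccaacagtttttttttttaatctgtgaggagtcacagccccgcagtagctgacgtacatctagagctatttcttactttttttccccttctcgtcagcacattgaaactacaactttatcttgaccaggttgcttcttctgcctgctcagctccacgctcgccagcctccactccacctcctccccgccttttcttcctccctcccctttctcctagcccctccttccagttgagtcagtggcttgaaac

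S100b, chr10:76253586-76253835, plus strand: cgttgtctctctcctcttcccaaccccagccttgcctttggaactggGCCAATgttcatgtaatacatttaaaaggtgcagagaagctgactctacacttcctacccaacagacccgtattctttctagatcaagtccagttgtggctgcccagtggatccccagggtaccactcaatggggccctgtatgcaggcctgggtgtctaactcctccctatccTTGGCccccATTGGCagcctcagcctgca

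S100b held TTGGC at 3 places, starting 203, 29 and 19 bases before the transcription start, and CCAAT at 2, while the windows of both connexins held neither. The RefSeq table matched 8 of the 10 members, Aqp4 and Sox9 not among them, with 9 windows. A member was counted when any of its windows held the string, whereas the percentages over all genes are shares of windows. TTGGC was in the windows of 4 of these 8 (Aldoc, Glul, S100b and Slc1a2) and in 41.5% of 32851 windows of all genes. CCAAT was in 4 of 8 (Aldh1l1, Glul, S100b and Slc1a3) and in 33.8% of all windows. The SOX core letters ACAAAG and ACAATG, which Sox9 is known to bind, were in 0 of 8 and in 16.5% and 10.7% of all windows. None of the 4 strings was in all 3 windows printed.

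Counted over the 10 genes, Pool 1 against Control gave 0 past the threshold, where 3.48% of all genes were, with 2 of 10 log2 fold changes above 0 and a median of -0.09. Above 0 were 48.9% of all genes and 53.1% of the 6180 genes at least as abundant as Sox9, of which 0.987% passed. Pool 2 against Control gave 0 as well, where 6.22% of all genes were, with 10 of 10 above 0 and a median of 0.08. Above 0 were 50.7% of all genes and 34.3% of those 6180, of which 0.906% passed. These comparisons share the Control mice. In Pool 2 against Pool 1 the 2 members were set against 6.82% of all genes past the threshold, 5.66% higher and 1.16% lower. Among the 6180 genes at least as abundant as Sox9 the share was 1.93%, with 0.955% higher. All 10 members were above 0 there, with a median of 0.17, whereas 53.5% of all genes and 33.2% of the 6180 abundant genes were. In Control against Vehicle and in Pool 1 against Vehicle 0 members passed, with medians of 0.10 and 0.00 over the members. Of all genes 5.1% and 5.34% passed, and of the abundant genes 1.8% and 0.922%. Pool 2 against Vehicle had 3 members past the threshold, all higher, where 4.69% of all genes passed and 2.8% were higher, against 0.728% and 0.469% of the abundant genes, and a median of 0.20 with 9 of 10 above 0. Above 0 were 51.0% of all genes and 42.0% of the abundant genes. The 3 comparisons with Vehicle share the Vehicle mice. Leaving out Pool 2 replicate 1 changed the picture for Pool 2: 3 of 10 members were then above 0 against Control (median -0.01), 8 of 10 against Pool 1 (median 0.08) and 7 of 10 against Vehicle (median 0.13). The members past the threshold were then Aqp4 and Gjb6 against Pool 1 and Gjb6 alone against Vehicle. Of all genes 4.72% and 3.96% then passed in these comparisons, in either direction.

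**Figure D2:**
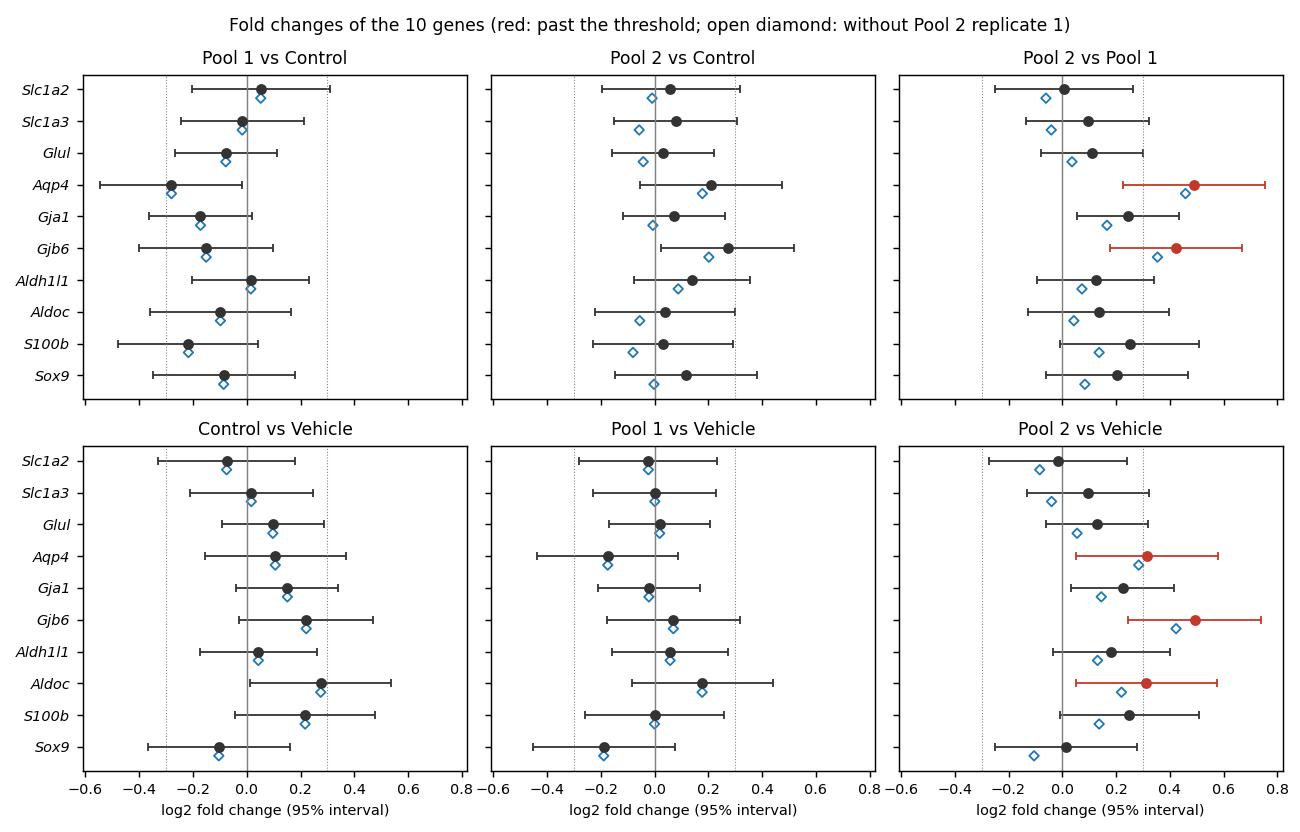
Log2 fold change of each gene with its 95% interval (horizontal axis) in the 6 comparisons, red where past the threshold, with the value without Pool 2 replicate 1 as an open diamond and dotted lines at 0.3 and -0.3. In the panel of Pool 2 against Pool 1, Aqp4 at 0.49 and Gjb6 at 0.42 stand to the right of the dotted line and stay there as diamonds, while the diamonds of Slc1a2 and Slc1a3 fall left of 0.

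Other astrocyte genes were looked at by list. Of 32 further homeostatic astrocyte genes, 30 were above 0 in Pool 2 against Pool 1 (median 0.14, and 24 with a median of 0.06 without Pool 2 replicate 1), where 53.5% of all genes and 33.2% of the 6180 genes at least as abundant as the lowest member were. Of the 32, Apoe, a lipid carrier, was the 1 past the threshold, where 5.66% of all genes and 0.955% of those 6180 were higher past it. Its log2 fold change was 0.44 (SE 0.19, unadjusted p = 0.0274, adjusted p = 0.51 in edgeR), and it did not pass without replicate 1, at 0.22. Without Pool 2 replicate 4 the count was 5 of 32, and without both libraries 0. Of all genes 6.73% and 3.63% then passed in either direction. Against Vehicle, Slco1c1, a thyroid hormone transporter that endothelial cells also carry, was lower in all 3 sRNA groups. These comparisons share the Vehicle mice. Its log2 fold changes were -0.37 in Control, -0.47 in Pool 1 and -0.37 in Pool 2 (unadjusted p = 0.0188, 0.00372 and 0.0168, with adjusted p from 0.545 to 0.886 in edgeR). Of all genes, 3.41%, 4.28% and 1.89% were lower past the threshold there. Of 10 endothelial genes, 1 was above 0 in Control, 2 in Pool 1 and 8 in Pool 2 against Vehicle. Their medians were -0.19, -0.06 and 0.18, and 0 passed. Above 0 were 46.8%, 48.3% and 51.0% of all genes. In Control mice the glutamine transporter Slc38a3 was also lower than in Vehicle, at -0.31 (unadjusted p = 0.023, adjusted p = 0.734 in edgeR). Cst3, which encodes cystatin C, was higher, at 0.43 (unadjusted p = 0.0328, adjusted p = 0.739 in edgeR). Of the 32, 1 was thus higher and 2 were lower past the threshold in Control, where 1.7% and 3.41% of all genes were. Slc6a11, the GABA transporter GAT-3, was higher in Pool 2 than in Vehicle by 0.31 (unadjusted p = 0.0369, adjusted p = 0.886 in edgeR). It was the 1 of the 32 higher past the threshold there, where 2.8% of all genes were. Neither Slc6a11, at 0.18, nor Slco1c1, at -0.31, passed in Pool 2 against Vehicle without Pool 2 replicate 4.

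Reactive astrocyte genes were higher in Pool 2 than in Pool 1 mice. Of 18 such genes, 14 were higher past the threshold, where 5.66% of all genes were, and 0 lower, with a median log2 fold change of 1.08. Without Pool 2 replicate 1 the count was 10 and the median 0.67. Of all genes 4.72% then passed in either direction. Gfap was at 417 CPM ± 38.2 in Pool 1 and 821 CPM ± 347 in Pool 2 (SD, n = 5 each), a log2 fold change of 0.98 (SE 0.22, unadjusted p = 0.000234, adjusted p = 0.196 in edgeR) that was 0.70 without replicate 1. Vim rose by 1.19 (unadjusted p = 0.00211), Aspg by 1.20 (unadjusted p = 1.21e-05) and Cd44, a hyaluronan receptor, by 1.68 (unadjusted p = 9.36e-05). Against Control 12 of the 18 were higher past the threshold in Pool 2, where 5.2% of all genes were. Without replicate 1 the count was 5, where 4.48% of all genes passed in either direction. Against Vehicle the count was 7, where 2.8% of all genes were higher. It was 3 without replicate 1, where 3.96% of all genes passed in either direction. In Pool 1, Gfap was lower than in Control, at -0.49 (unadjusted p = 0.0358, adjusted p = 0.917 in edgeR). It was the 1 reactive gene past the threshold there, where 1.99% of all genes were lower past it. Against Vehicle, 1 of the 18 was above 0 in Pool 1, where 48.3% of all genes were, with a median of -0.34. Lower past the threshold were 4, where 4.28% of all genes were. Without Pool 2 replicate 1 these lower counts were 2 and 6, where 3.73% and 5.94% of all genes passed in either direction.

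Markers of other cells moved in the same comparison as Aqp4 and Gjb6. In Pool 2 against Pool 1, 10 of 12 microglial genes were higher past the threshold (C1qb by 1.18, and by 0.50 without Pool 2 replicate 1), but 1 of 12 without that library. All 8 thalamic genes were higher past the threshold, with a median of 1.27 that was 1.42 without replicate 1. Without Pool 2 replicate 4, 4 of the 8 were, with a median of 0.85, and without both libraries 7, with a median of 0.92. The transcription factors Tcf7l2, at 2.18, and Lef1, at 1.26, were among them. Higher past the threshold, as 5.66% of all genes were, were also 3 of 8 genes of leptomeningeal fibroblasts (6 without replicate 1), 3 of 6 of blood (0 without it), 1 of 10 of endothelium (0 without it), and 1 of 10 of ependyma and choroid plexus (1 without it). The fibroblast genes had their highest summed level, 174 CPM, in Pool 2 replicate 4. Their count was 3 without replicate 4 and 2 without both libraries, with medians of 0.58 and 0.61 against 0.91 in all libraries. Lower past the threshold, as 1.16% of all genes were, was 1 of 9 interneuron genes, Lhx6, at -0.39. In oligodendrocyte (14 genes), pyramidal and granule neuron (13) and neocortical (8) lists 0 genes passed, and 1 neocortical gene was higher without replicate 1. Of all genes, 4.72% passed in either direction in Pool 2 against Pool 1 without replicate 1, 6.73% without replicate 4 and 3.63% without both. The summed level of the thalamic genes ranged from 89.3 to 128 CPM in Pool 1 and from 121 to 515 CPM in Pool 2, that of the microglial genes from 475 to 579 and from 496 to 1665, and that of the reactive astrocyte genes from 602 to 809 and from 790 to 1965. No gene of any list was at 0 throughout a group. In comparisons with Vehicle, ependymal and choroid plexus genes were lower past the threshold in 3 of 10 cases in Control, 6 in Pool 1 and 4 in Pool 2, where 3.41%, 4.28% and 1.89% of all genes were. Without Pool 2 replicate 1, which enters every comparison through the shared spread, the counts were 2, 5 and 2. Of all genes 5.62%, 5.94% and 3.96% then passed in either direction. Their summed level in Vehicle mice ran from 219 to 8854 CPM. The part of any of these in the Aqp4, Gjb6, Aldoc and Slco1c1 results was not tested.

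**Figure D3:**
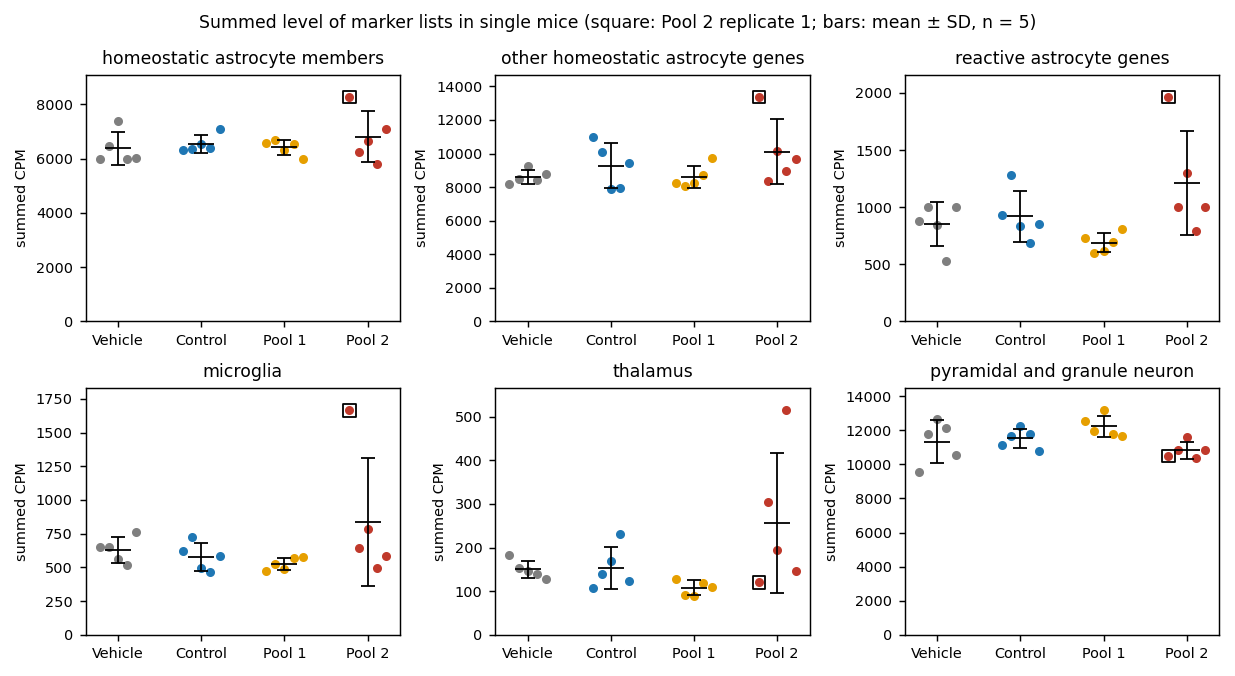
Summed level in CPM (vertical axes, starting at 0) of the 10 genes and of 5 marker lists in every mouse, with group means and SD as bars and Pool 2 replicate 1 in a square. That library is the highest for the reactive astrocyte genes, at 1965 CPM, and for the microglial genes, at 1665 CPM, while the highest thalamic level, 515 CPM, belongs to Pool 2 replicate 4.

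Between single mice the 10 genes did not vary as 1 block. Of the 45 pairs of members, 38 had a positive Pearson correlation of log2 CPM over the 20 libraries, with r from -0.37 to 0.85 and a median of 0.43. In 19 pairs the permutation p, adjusted over the 45 pairs, was under 0.05, and all 19 were positive. The closest pair was Glul and Aldoc, at r = 0.85 and Spearman's rho = 0.78 (permutation p = 1e-05, the smallest that 100000 resamples can give, and 7e-05, adjusted p = 0.00045 and 0.00202), with r = 0.75 without the 2 libraries farthest from the median of Glul. S100b and Aldoc followed at r = 0.82 and rho = 0.78 (permutation p = 2e-05 and 9e-05, adjusted p = 0.00045 and 0.00202), with r = 0.80 without the 2 farthest. Within groups, with each value centred on its group mean, the median over the 45 pairs was 0.35 and 35 were positive. The relations leaned on Pool 2 replicate 1: without it 28 pairs were positive, the median was 0.19, and 7 pairs had an adjusted permutation p under 0.05. Of these, 6 were among the 19, and 1, Slc1a2 and S100b, was not and had a negative r.

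Arranged after the values were seen, and therefore given without a test, the genes fell into a larger and a smaller set. Aldoc, Glul, S100b, Aldh1l1, Gja1 and Gjb6 had r from 0.38 to 0.85 in their 15 pairs, with a median of 0.66 that was 0.55 without Pool 2 replicate 1. The genes whose upstream windows are printed above belong to this set. Slc1a2, Slc1a3, Aqp4 and Sox9 had r from 0.31 to 0.61 in their 6 pairs, with a median of 0.51 that was 0.36 without it. The 24 pairs between the sets had a median of 0.14, and of -0.13 without that library. Slc1a2 and Slc1a3, the glutamate transporters, went together at r = 0.61 and rho = 0.65 (permutation p = 0.00346 and 0.00259, adjusted p = 0.012 and 0.0153), and r was 0.69 without the 2 farthest libraries. Slc1a2 and S100b ran apart, at r = -0.37 and rho = -0.35 (permutation p = 0.106 and 0.133, adjusted p = 0.184 and 0.259) in all libraries and r = -0.68 without Pool 2 replicate 1. Without the 2 libraries farthest from the median of Slc1a2, Control replicate 1 and Pool 1 replicate 5, the r of this pair was -0.12. Pool 2 replicate 1 was kept there. Leaving out the extremes of a gene narrows its range, so this value cannot tell how far the relation rests on those samples.

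**Figure D4:**
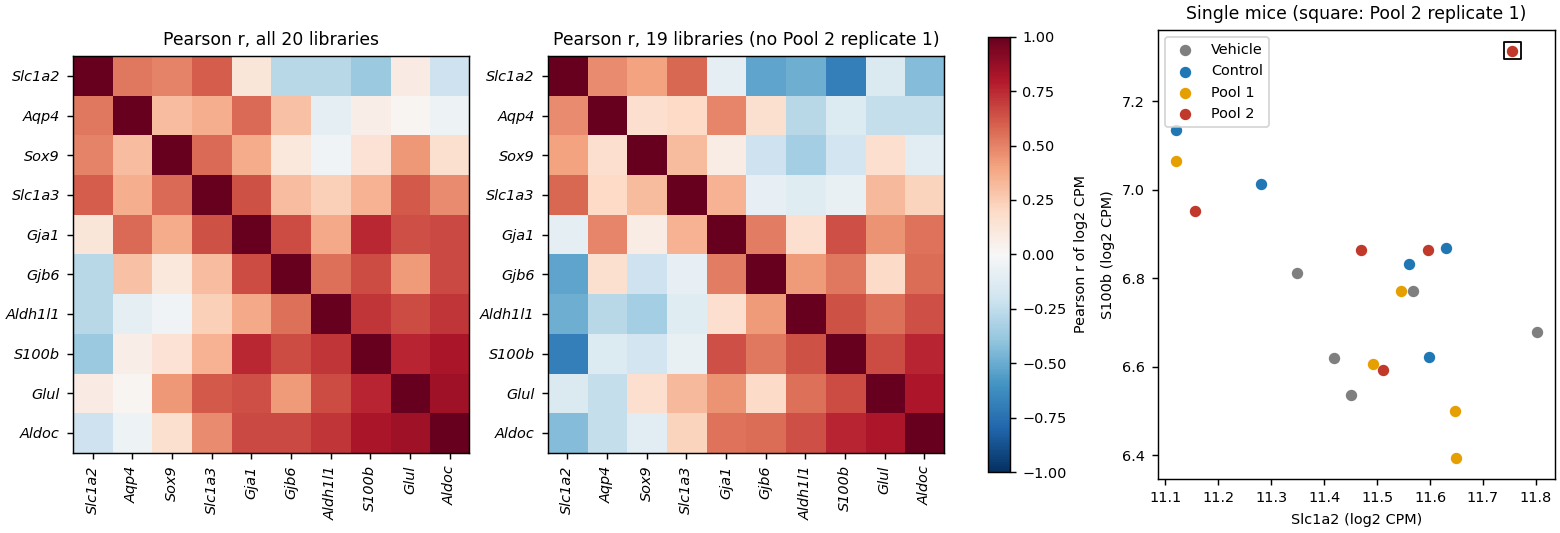
Pearson correlation of log2 CPM for each pair of the 10 genes over 20 libraries (left) and over 19 without Pool 2 replicate 1 (middle), on a colour scale from -1 to 1, and the log2 CPM of S100b against that of Slc1a2 in every mouse (right). Red squares gather among Gja1, Gjb6, Aldh1l1, S100b, Glul and Aldoc, and the square of Slc1a2 with S100b goes from -0.37 to -0.68 without that library.

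The libraries also differed in the balance of long and short transcripts, and the members differed in how they went with it. An index of this balance, built after the data were seen, was taken as the mean log2 deviation of 4709 genes with at least 6000 bases of exon minus that of 2056 genes with at most 2000 bases, with the members left out. It ran from -0.41 in Control replicate 1 to 0.21 in Pool 1 replicate 1, and its range was wide in every group, from -0.23 to 0.18 in Vehicle, -0.41 to 0.20 in Control, -0.28 to 0.21 in Pool 1 and -0.22 to 0.21 in Pool 2. S100b, with 1484 bases of exon the shortest member, had r = -0.85 and rho = -0.87 with the index over the 20 libraries (permutation p = 1e-05 for each, the smallest possible, adjusted p = 0.0001 over 10 genes), and r = -0.81 without the 2 farthest libraries. Aldoc, with 3263 bases, had r = -0.74 and rho = -0.70 (permutation p = 0.00019 and 0.00075, adjusted p = 0.00095 and 0.00375; r = -0.63 without the 2 farthest). Slc1a2, with 13133 bases the longest member, had r = 0.61 and rho = 0.58 (permutation p = 0.00412 and 0.00852, adjusted p = 0.0103 and 0.0213; r = 0.37 without the 2 farthest). Glul, Aldh1l1 and Gjb6 had r = -0.63, -0.59 and -0.55 and rho = -0.64, -0.48 and -0.55 (adjusted permutation p for r = 0.0093, 0.011 and 0.0202, for rho = 0.00893, 0.0473 and 0.0248; r = -0.58, -0.37 and -0.53 without the 2 farthest). Slc1a3 and Sox9 showed little relation, at r = -0.14 and 0.11 and rho = 0.04 and 0.17 (adjusted permutation p from 0.516 to 0.885). Gja1, with 10257 bases, went the other way from Slc1a2, at r = -0.47 and rho = -0.53 (permutation p = 0.0382 and 0.0169, adjusted p = 0.0546 and 0.0282; r = -0.61 without the 2 farthest). Aqp4 had r = 0.33 and rho = 0.21 (permutation p = 0.149 and 0.374, adjusted p = 0.186 and 0.468), with r = -0.10 without the 2 farthest. With an offset for transcript length in edgeR, an alternative chosen after seeing the data, the log2 fold changes of Pool 2 against Pool 1 were 0.50 for Aqp4 and 0.40 for Gjb6, and Aldoc was no longer past the threshold against Vehicle.

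**Figure D5:**
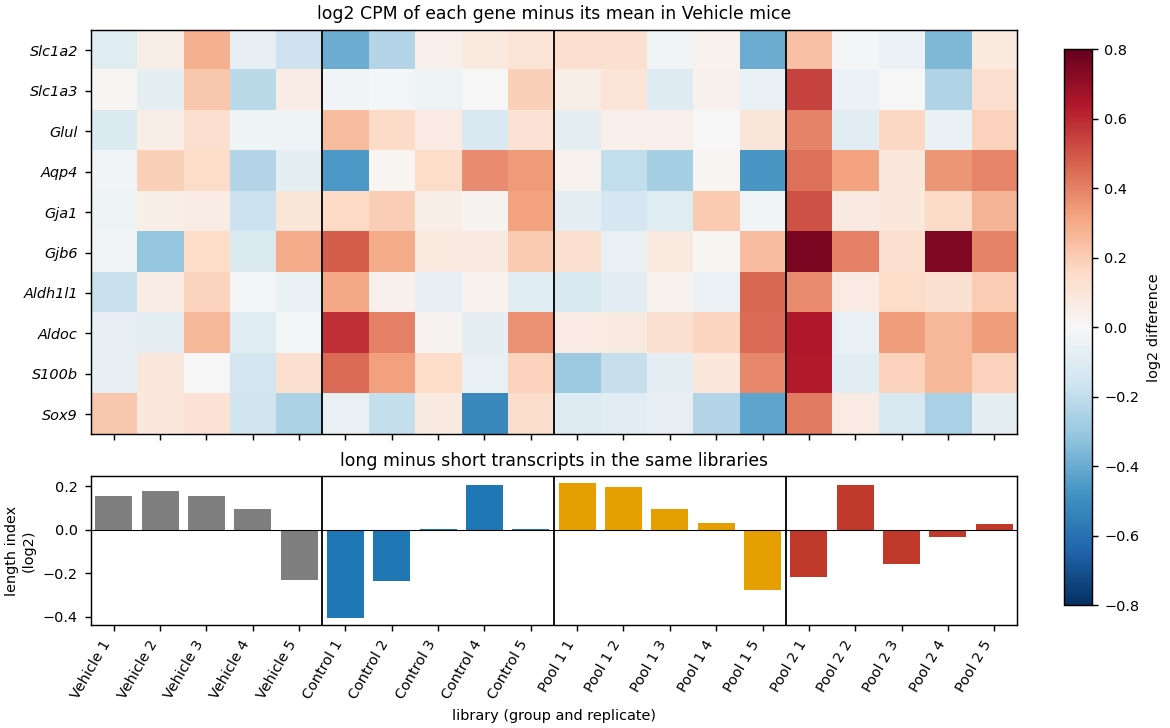
Log2 CPM of each gene minus its Vehicle mean in the 20 libraries (top, colour scale from -0.8 to 0.8) above the index of long minus short transcripts (bottom, log2). Pool 2 replicate 1 is the reddest column, and in Control replicate 1 and Pool 1 replicate 5, where the index is -0.41 and -0.28, Slc1a2 and Aqp4 are blue while Aldoc, S100b and Aldh1l1 are red.

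Among the 32 further homeostatic astrocyte genes, 28 had a positive correlation with S100b over the 20 libraries, but 12 had one with Slc1a2. In 20 genes the sign was positive with S100b and negative with Slc1a2, and in 4 the reverse. The last 4 included Dio2, the deiodinase that activates thyroid hormone, with r = 0.82 to Slc1a2 and -0.28 to S100b, and the bicarbonate transporter Slc4a4, with 0.72 and -0.43. Ndrg2, with 0.87 to S100b and -0.28 to Slc1a2, was on the other side. These values are descriptive, since all genes share the libraries and their balance of transcript lengths.

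Among 14787 genes with a mean of at least 1 CPM, the 5 whose log2 CPM followed the mean standardized level of the 10 members most closely over the 20 libraries were Ddah1 and Ttyh1 (r = 0.89 each), Plpp3 (r = 0.88), S1pr1 and Alox5ap (r = 0.87 each). Ttyh1, Plpp3 and S1pr1 belong to the list of further homeostatic astrocyte genes. Ddah1 and Alox5ap do not, and the level of Alox5ap was low, at a mean of 3.62 CPM. Without Pool 2 replicate 1 the r values were 0.84, 0.79, 0.85, 0.77 and 0.67.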

How the data were processed

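Poly(A)-selected RNA from hippocampal CA1 tissue of the 20 mice was sequenced as stranded 50-nt single-end reads in 2 rounds. As the study's methods and the submitters' processing notes state, the authors checked reads with FastQC 0.11.5, aligned them with STAR to the mouse genome (mm10) and counted them per gene with STAR's gene counts on GENCODE annotation. The rounds were summed, genes with a total under 10 were dropped, and the deposited values are raw read counts. The strand setting of the counting is not given in the sources used here. Slc1a2, Slc1a3, Aqp4, Glul, Aldh1l1 and S100b overlap another annotated gene, and reads shared with it could be lost or added.

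From these counts, edgeR 4.0.16 (R 4.3.3; TMM scaling, quasi-likelihood test with robust spread) was fitted once to the 4 groups of 5, with Benjamini-Hochberg adjustment over 25190 genes. The threshold was a log2 fold change of at least 0.3 in size and an unadjusted p under 0.05. DESeq2 1.42.0 was an alternative. CPM values used TMM library sizes, and log2 CPM a prior count of 2. The scripts were tested on simulated data. Exon lengths came from GENCODE on GRCm38. All 10 members were named, and of each other list the 4 genes at most past the threshold with the smallest p, with Gfap and Vim always. The members and lists were chosen with earlier results of these data known. Slc4a4, Dio2 and Ndrg2 were named after their values were seen. The labels name the libraries of a group as numbered replicates and give no animal identifiers, so p-values measure the spread between these samples. The lowest count of a member in a library was 605 reads (Sox9), so counting error is small beside the spread between mice.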

Additional observations from a re-analysis of the deposited data

Results flagged for a closer look

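In 40 groups of 5 mice (10 genes in 4 groups), 4 values lay far from the rest of their group by Dixon's limit of 0.71 for the gap divided by the range. Chance gives about 1 in 20 such groups. Slc1a3 in Control replicate 5 was 732.7 CPM, where the next mouse had 641. Aldh1l1 in Pool 1 replicate 5 was 56.3 CPM, where the next had 41.6. Aldoc in the same library was 937 CPM, where the next had 772. Aldoc in Vehicle replicate 3 was 822 CPM, where the next had 677. Pool 1 replicate 5 also had the second lowest index of long against short transcripts of the 20 libraries, at -0.28, and the lowest mitochondrial share of counts, 3.60%. The part of either in the Aldh1l1 and Aldoc values was not tested.

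The schizophrenia pools differed from each other by the test of that difference for Aqp4, by a log2 fold change of 0.49, and for Gjb6, by 0.42 (unadjusted p = 0.000812 and 0.00171, adjusted p = 0.221 and 0.276 in edgeR). Each pool set against the same Control mice gave no member past the threshold.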

How the results depend on the processing

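Beside the values reported, 31 other settings were fitted, 20 of which leave out 1 library each. None of the values past the threshold took the other sign under any of the 31, while 25 of the 60 member differences did, all of them short of the threshold. Aqp4 in Pool 2 against Pool 1 kept its call in 31 of 31 settings. Gjb6 kept its calls against Pool 1 and Vehicle in 30 of 31. Aldoc and Aqp4 in Pool 2 against Vehicle kept theirs in 23 of 31 each. The cause of these changes was not tested.

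Leaving out 1 library at a time, the count of members past the threshold ranged from 0 to 1 in Pool 1 against Control, from 0 to 1 in Pool 2 against Control, from 2 to 3 in Pool 2 against Pool 1, from 0 to 1 in Control against Vehicle, and from 1 to 4 in Pool 2 against Vehicle. Calls were gained by S100b without Pool 1 replicate 5 (Pool 1 against Control and Pool 2 against Pool 1) or without Pool 2 replicate 2 (Pool 2 against Pool 1 and Vehicle), and by Gja1 without Pool 1 replicate 4 (Pool 2 against Pool 1). Gjb6 gained one without Control replicate 1 or Pool 2 replicate 3 (Pool 2 against Control) and without Vehicle replicate 5 (Control against Vehicle), and Aldoc without Vehicle replicate 3 or Control replicate 3 or 4 (Control against Vehicle). In Pool 2 against Vehicle the count of 1 came without Vehicle replicate 1, Vehicle replicate 4 or Pool 2 replicate 1. Without Vehicle replicate 4 and Pool 2 replicate 1 together it was 1. Without Pool 2 replicates 1 and 4 together, a setting chosen after seeing the data, it was 0, and in Pool 2 against Pool 1 it was 1, Aqp4. With the offset for transcript length, also chosen after seeing the data, Pool 1 against Control had 1 (Aqp4, at -0.30), with or without Pool 2 replicate 1, and Pool 2 against Vehicle had 1 without that library. DESeq2, its size factors in edgeR, both filters on low counts, the default estimate of the spread and fits of only the groups compared gave the reported counts.

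Of the 45 pairs of members, 19 passed the adjusted permutation test in all libraries and 7 without Pool 2 replicate 1. Of the 60 exact permutation tests of single members, 8 had p under 0.05 and 4 without Pool 2 replicate 1. All 8 were in Pool 2 against Pool 1 or against Vehicle, which share the Pool 2 mice. The share of all genes under 0.05 in this test was not computed, so the count has nothing to be set against.

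The replicate numbers are shared by the groups. Deviations of same-numbered libraries correlated at r from -0.38 to 0.30 over 30 pairs, with 12 over 0.1, and 2 of 20 libraries correlated best with their own number. The median r was 0.02, against -0.01 for pairs of other numbers. This check cannot exclude a pairing, since a shared effect smaller than the spread between mice would not show. The labels name no pairs. With the replicate block the counts were unchanged, 2 members in Pool 2 against Pool 1 and 3 in Pool 2 against Vehicle.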
